A study of Mus musculus with 9 samples.

Results

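The cyclins, cyclin-dependent kinases (CDKs) and CDK inhibitors that act in the G1 phase of the cell cycle were examined in stimulated mouse CD4+ T cells with altered Fosl2. The genes were Ccnd2, Ccnd3, Ccne1, Ccne2, Cdk2, Cdk4, Cdk6, Cdkn1a, Cdkn1b and Cdkn2c, chosen by symbol, 10 of the 23849 genes with an entry. Sorted naive CD4+ T cells had been stimulated with antibodies to CD3 and CD28, the T cell receptor complex and its co-receptor, and all libraries came from cells at 24 h. The control group was wild type (wt), the second group carried a Fosl2 transgene (Fosl2 Tg), and the third was Fosl2fl/fl CD4-cre+, labelled Fosl2 KO (below, the KO-labelled libraries), with 3 libraries in each group and 9 in all. In the third genotype the Cre recombinase is named for CD4, a gene of the T cell lineage, and the promoter that drives the transgene is not given in the sources used here. Fosl2 encodes a transcription factor of the AP-1 family. Poly-A RNA was used for directional libraries, and expression was given as FPKM (fragments mapped to a gene, divided by its length in kilobases and by the depth of the library). Whether libraries of 1 group stem from separate animals is not stated in the labels, so p-values reflect only the spread between libraries, which may be technical.

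Resting T cells leave quiescence when D-type cyclins accumulate and bind CDK4 and CDK6. These kinases phosphorylate the retinoblastoma family of pocket proteins, which releases E2F transcription factors and turns on the genes of the E-type cyclins and of DNA replication, and cyclin E bound to CDK2 then drives entry into S phase. INK4 inhibitors such as p18 (Cdkn2c) bind CDK4 and CDK6, whereas the Cip and Kip inhibitors p21 (Cdkn1a) and p27 (Cdkn1b) bind cyclin-CDK complexes and inhibit cyclin E and CDK2 in particular.

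The sequences before the start sites of Cdk4 and Cdk2 are shown because, of the genes examined, these held the repeated E-box and the E2F letters. RefSeq promoters (build GRCm38.p6, 250 bases before to 50 after each start) were matched for 8 of the 10 genes, with 11 windows of 300 bases, and not for Ccnd2 and Ccne2. Each sequence below is the 250 bases before the start, 5′ to 3′ on the strand of the gene. Capitals mark CACGTG, the E-box bound by Myc, in Cdk4 (chr10:127063285-127063534, plus strand), and GCGGGAAA, the reverse complement of an E2F sequence, in Cdk2 (chr10:128705052-128705301, minus strand).
Cdk4: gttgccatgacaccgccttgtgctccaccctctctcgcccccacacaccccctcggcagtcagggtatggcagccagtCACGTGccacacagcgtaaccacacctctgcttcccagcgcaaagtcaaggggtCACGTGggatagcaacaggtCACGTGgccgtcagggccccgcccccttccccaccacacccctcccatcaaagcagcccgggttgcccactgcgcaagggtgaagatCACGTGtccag
Cdk2: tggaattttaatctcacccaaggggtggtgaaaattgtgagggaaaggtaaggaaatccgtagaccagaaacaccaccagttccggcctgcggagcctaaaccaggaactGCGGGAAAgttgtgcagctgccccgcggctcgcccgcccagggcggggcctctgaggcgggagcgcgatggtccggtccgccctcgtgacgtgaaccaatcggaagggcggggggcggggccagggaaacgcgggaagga
The Cdk4 window held 4 copies of CACGTG, with first bases 172, 118, 98 and 11 bases before the start. In all, 7.2% of 32851 promoters held at least 1 copy, and 8 promoters (0.0244%) held 4 or more. Single copies were in windows of Cdk6 and Cdkn2c. E2F letters (TTTCCCGC, TTTGGCGC, TTTCGCGC or TTTGCCGC on either strand) were in 2.3% of promoters and, of these genes, in Cdk2. The FoxO sequence GTAAACA, in 3.6% of promoters, was found in Ccnd3, and the AP-1 sequence TGANTCA, in 7.8% of promoters, in 0 of the 8 genes. Matches of letters do not show binding.

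Estimated depth was 33.8 to 60.9 M fragments per library (M, 10 to the power of 6), lowest in library 1 of both the Fosl2 Tg and the KO-labelled group. Mean Fosl2 FPKM was 7.12 ± 0.857 for control, 24.9 ± 5.84 for Fosl2 Tg and 18.04 ± 1.09 for the KO-labelled libraries (SD, n = 3 each). It was thus higher than control in both groups (limma adjusted p = 0.000749 and 0.00404). This goes against the KO label, and gene-level FPKM leave unseen which exons the transcripts held. The summed FPKM of 5 CD4 T cell markers was 696 to 715 in control, 751 to 879 in Fosl2 Tg, with 685 to 710 in the KO-labelled libraries. These markers did not move together. In Fosl2 Tg against control, Cd3d and Cd3g were higher (limma adjusted p = 0.0255 and 0.0122), and Cd3e and Il7r had higher means but did not pass. Cd4 had a lower mean, 165.7 against 178.3 FPKM, and did not pass (limma adjusted p = 0.206). The sum of both CD8 T cell markers was 11.9 to 12.8 in control, 10.7 to 12.7 in Fosl2 Tg, with 6.12 to 7.49 in the KO-labelled libraries, nearly all from Cd8b1. Cd8b1 fell by 0.75 ± 0.08 in the KO-labelled libraries against control (log2, SE, limma adjusted p = 0.00199), and the part of such cells in the results was not tested. Summed markers of B cells were at most 1.83, of myeloid cells at most 1.11, with Cd14 at 0, of NK and gamma delta T cells at most 0.0975, with Ncr1 at 0, and of red blood cells at most 0.356. On the leading principal component, Fosl2 Tg library 1 was the most distant (24% of variance). In that library Il7r, the IL-7 receptor gene of resting T cells, was at 71.8 FPKM against 16.4 and 16.3 in the other Fosl2 Tg libraries and 7.59 to 16.6 in control. In bulk RNA, fewer cells in a given state and less RNA per cell cannot be told apart.

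In Fosl2 Tg, 7 of the 10 G1 genes were lower than in control and 0 were higher (limma, adjusted p under 0.05 over all 10340 genes tested). The lower genes were both E-type cyclins, Ccnd3, Cdk4, Cdk2, Cdkn1a and Cdkn2c. All 10 passed the filter on low values. Of all tested genes, 23.6% were called, 15.1% lower and 8.53% higher. The median log2 difference of the G1 genes was -0.43, against -0.03 over all genes. The libraries of both groups did not overlap for 8 of the 10, against 45.2% of all tested genes. Leaving out control library 2 or 3 reduced the calls to 2 (Ccne2 and Cdkn2c), and 6 were called without Fosl2 Tg library 1. A fit of only these groups called 3.

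**Figure D1:**
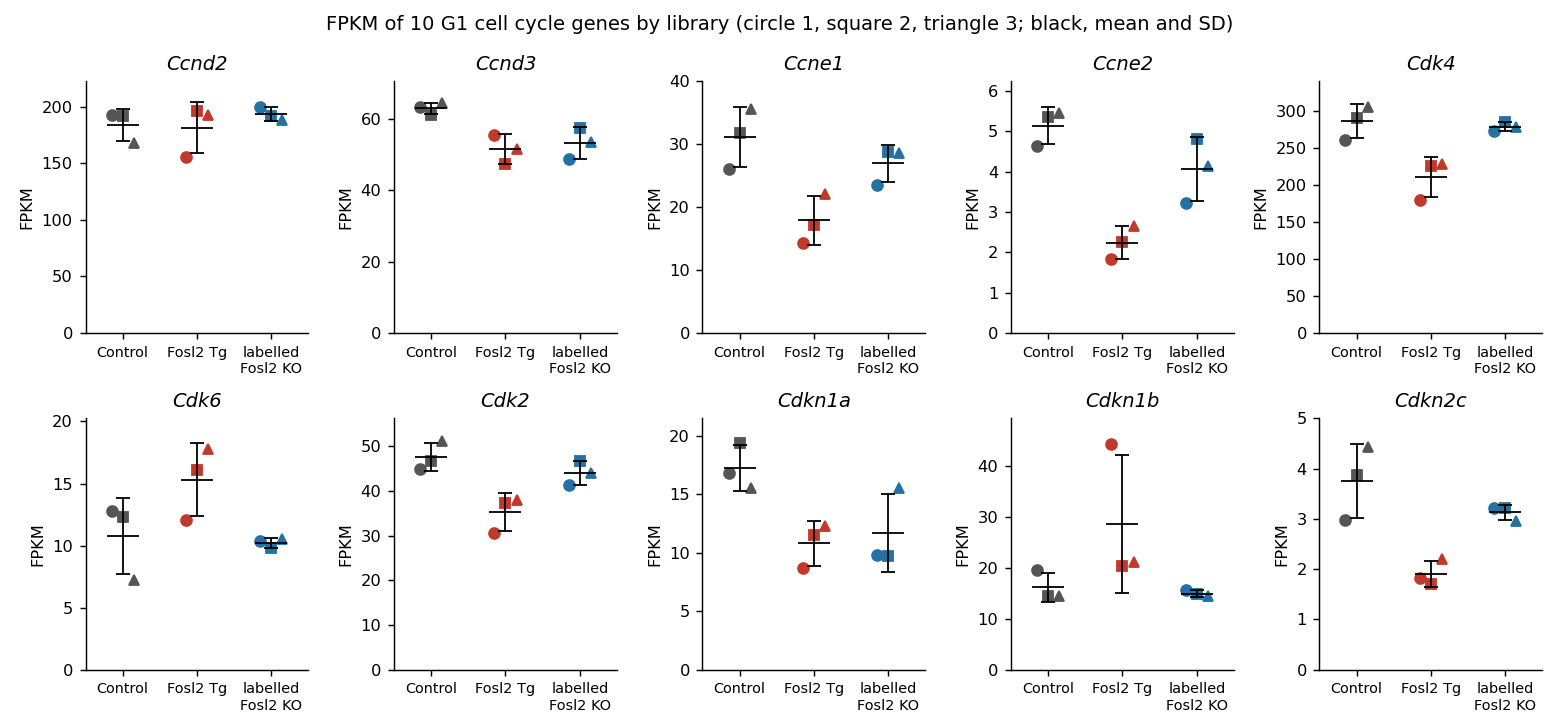
FPKM of the 10 G1 genes (y axis, linear from 0) in each library of the 3 groups (x axis); circles, squares and triangles are libraries 1, 2 and 3, and black lines are the mean and SD. Both E-type cyclins, Cdk2, Cdk4 and Cdkn2c were lowest in Fosl2 Tg without overlap, while Cdkn1b reached 44.2 in Fosl2 Tg library 1.

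Of the D-type cyclins, which pair with CDK4 and CDK6, Ccnd3 fell in Fosl2 Tg and Ccnd2 did not pass the test. Ccnd2 (chr6:127125709-127151048; loci of genes are those in the deposited file, build mm10) stood at 193, 192 and 168 FPKM in control libraries 1, 2 and 3, at 156, 196 and 192 in Fosl2 Tg, and at 200.1, 192 and 188 in the KO-labelled libraries. The 3 groups overlapped, and the lowest value was that of Fosl2 Tg library 1. The log2 difference between Fosl2 Tg and control was -0.02 ± 0.10 (SE, limma adjusted p = 0.859), or 0.08 if Fosl2 Tg library 1 was left out. Ccnd3 (chr17:47505051-47599688) stood at 63.3, 61.3 and 64.4 FPKM in control, at 55.7, 47.3 and 51.6 in Fosl2 Tg, and at 48.7, 57.6 and 53.6 in the KO-labelled libraries. Every control library was above every library of both other groups. Ccnd3 fell by 0.29 ± 0.08 on the log2 scale in Fosl2 Tg (limma adjusted p = 0.0308), to 81.8% of the control mean. This small change lost its call without any 1 control library, without Fosl2 Tg library 2 or 3 or KO-labelled library 3, and after median-of-ratios scaling or quantile normalization. Ccnd1, the D-type cyclin of many non-lymphoid cells, was at 0.137 to 0.302 FPKM in the 9 libraries and was not tested.

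Both E-type cyclins, the partners of CDK2 at entry into S phase, fell in Fosl2 Tg. Ccne2 (chr4:11191354-11204779) stood at 4.62, 5.36 and 5.45 FPKM in control, at 1.82, 2.25 and 2.64 in Fosl2 Tg, and at 3.23, 4.82 and 4.15 in the KO-labelled libraries. All 3 Fosl2 Tg libraries were below the other 6, while the KO-labelled libraries overlapped with control. Ccne2 fell by 0.93 ± 0.13 (log2, SE, limma adjusted p = 0.00327), to 43.5% of the control mean. The call held whichever library was left out, with 0.0194 as the highest adjusted p from limma. Ccne1 (chr7:38097984-38107490) stood at 26.1, 31.8 and 35.6 FPKM in control, at 14.4, 17.2 and 22.1 in Fosl2 Tg, and at 23.6, 28.7 and 28.6 in the KO-labelled libraries. The Fosl2 Tg libraries were again all below the other 6. Ccne1 fell by 0.78 ± 0.16 (limma adjusted p = 0.0148), to 57.5% of the control mean. Without control library 2 or 3 the adjusted p from limma was 0.0596 or 0.0558, and without Fosl2 Tg library 1 the gene fell by 0.64 and stayed past the threshold.

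Among the kinases, Cdk4 and Cdk2 fell and Cdk6 did not pass. Cdk4 (chr10:127063603-127067282), the kinase gene with 4 E-boxes shown above, stood at 261, 291 and 306 FPKM in control, at 179.96, 226 and 228 in Fosl2 Tg, and at 273, 285 and 279 in the KO-labelled libraries. All Fosl2 Tg libraries were below the other 6, with library 1 the lowest. Cdk4 fell by 0.44 ± 0.10 (log2, SE, limma adjusted p = 0.0184), to 73.8% of the control mean, and by 0.33 without Fosl2 Tg library 1. Cdk2 (chr10:128697939-128705051), the partner of cyclins E and A, stood at 44.9, 46.7 and 51.2 FPKM in control, at 30.5, 37.3 and 38.0 in Fosl2 Tg, and at 41.3, 46.7 and 44.0 in the KO-labelled libraries. The Fosl2 Tg libraries did not overlap with the other 6. Cdk2 fell by 0.43 ± 0.09 (limma adjusted p = 0.0157), to 74.2% of the control mean, and by 0.33 without Fosl2 Tg library 1. Both calls were lost without control library 2 or 3 (limma adjusted p 0.0537 to 0.0704). Cdk6 (chr5:3344312-3522225), the other kinase that D-type cyclins bind, stood at 12.8, 12.3 and 7.21 FPKM in control, at 12.04, 16.1 and 17.8 in Fosl2 Tg, and at 10.4, 9.79 and 10.5 in the KO-labelled libraries. Fosl2 Tg overlapped with control through library 1, and control library 3 was the lowest of all. The log2 difference was 0.49 ± 0.20 (limma adjusted p = 0.104), and 0.25 without control library 3.

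The inhibitors did not move together. Cdkn2c (chr4:109660876-109665372), which encodes the INK4 inhibitor p18, stood at 2.98, 3.87 and 4.44 FPKM in control, at 1.82, 1.71 and 2.20 in Fosl2 Tg, and at 3.22, 3.21 and 2.95 in the KO-labelled libraries. The Fosl2 Tg libraries were below the other 6. Cdkn2c fell by 0.70 ± 0.12 (log2, SE, limma adjusted p = 0.0058), to 50.8% of the control mean, and the call held whichever library was left out. Cdkn1a (chr17:29090986-29100722), which encodes the p53 target p21, stood at 16.8, 19.4 and 15.55 FPKM in control, at 8.66, 11.5 and 12.3 in Fosl2 Tg, and at 9.85, 9.72 and 15.51 in the KO-labelled libraries. Control was above both other groups, but only narrowly above KO-labelled library 3. Cdkn1a fell by 0.64 ± 0.19 in Fosl2 Tg (limma adjusted p = 0.0419), to 62.6% of the control mean. This call was lost in 8 of 9 fits with 1 library left out, held without KO-labelled library 3, and had a log2 difference of -0.50 and a limma adjusted p of 0.101 without Fosl2 Tg library 1. Cdkn1b (chr6:134920401-134925525), which encodes p27, the Kip inhibitor of quiescent T cells, stood at 19.4, 14.5 and 14.5 FPKM in control, at 44.2, 20.3 and 21.0 in Fosl2 Tg, and at 15.6, 14.8 and 14.4 in the KO-labelled libraries. All Fosl2 Tg libraries were above the other 6, and library 1 had over 2-fold the level of libraries 2 and 3. The log2 difference was 0.70 ± 0.27, which did not pass (limma adjusted p = 0.0824), and it was 0.35 without Fosl2 Tg library 1 (limma adjusted p = 0.074). With the replicate numbers as a block, Cdkn1b passed (limma adjusted p = 0.0323).

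**Figure D2:**
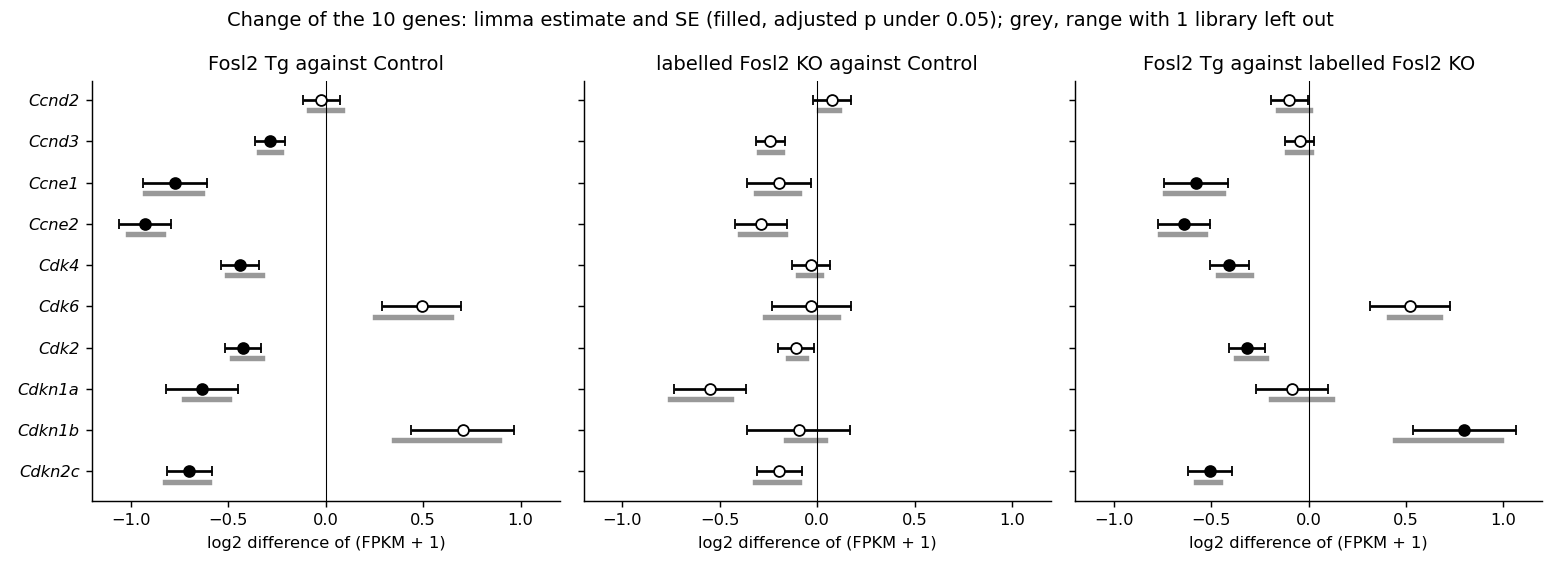
Log2 differences of (FPKM + 1) for the 10 G1 genes in the 3 comparisons (x axis), as limma estimates with SE; filled points had an adjusted p under 0.05, and grey bars span the estimates with 1 library left out. For Fosl2 Tg against control 7 points are filled, all below 0, and for the KO-labelled libraries against control 0 are filled.

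Fosl2 Tg library 1 was the lowest of its group for 7 of the 10 genes and the highest for Ccnd3 and Cdkn1b. Library 1 of control and library 1 of the KO-labelled group were each the lowest of their group for 5. Ccne1, Ccne2, Cdk2 and Cdk4 were lowest, and Cdkn1b highest, in library 1 of every group. Values of some regulators in Fosl2 Tg library 1 are given beside this. Klf2, a transcription factor gene of resting T cells, was at 131 FPKM against 46.6 and 45.9 in the other Fosl2 Tg libraries and 23.0 to 39.4 in control. Tob1, an antiproliferative gene, was at 19.9 against 8.55 and 9.04. The cyclin G2 gene Ccng2, named after its values were seen, was at 23.8 against 10.4 and 10.4. Klf4, a gene of the same family as Klf2, was instead at 0.207 against 0.191 and 0.154, and 0.393 to 0.492 in control. The part of this library's state, and of its lower depth, in the differences of the G1 genes was not tested beyond the values given without it. In libraries 2 and 3 of Fosl2 Tg, Ccnd3, Ccne1, Ccne2, Cdk2, Cdk4, Cdkn1a and Cdkn2c were still below every control library.

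**Figure D3:**
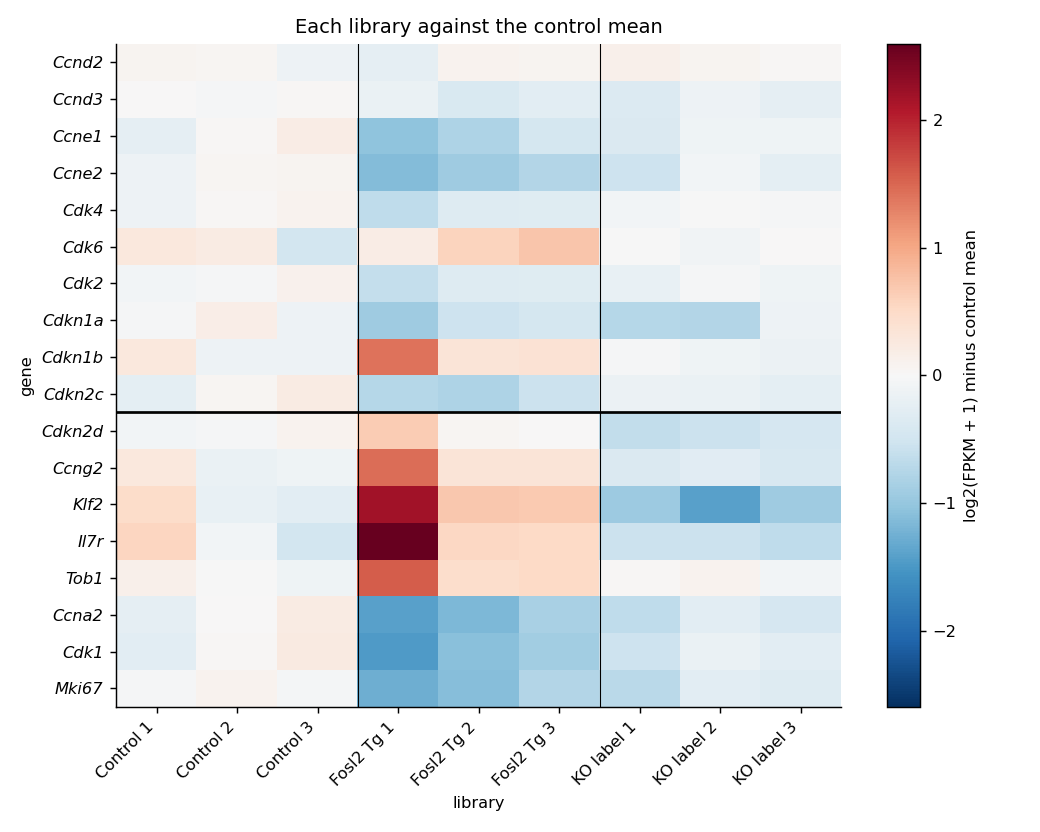
Difference of log2(FPKM + 1) from the control mean (colour) for the 10 G1 genes, above the black line, and for related genes below it, in each library (x axis). Fosl2 Tg library 1 stands out by Il7r (71.8 FPKM), Klf2 (131 FPKM) and Cdkn1b (44.2 FPKM), while Ccne1 and Ccne2 are low in all 3 Fosl2 Tg libraries.

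In the KO-labelled libraries, 0 of the 10 G1 genes passed limma's threshold against control, where 4.46% of all tested genes did (2.14% higher, 2.32% lower). At an unadjusted p under 0.05 there were 2, Ccnd3 and Cdkn1a, both lower, while 18.8% of all tested genes reached it, 10.9% lower. These 2 were also the only ones of the 10 whose libraries did not overlap between the groups, against 32.8% of all tested genes. The log2 difference was -0.24 ± 0.08 for Ccnd3 (SE, limma adjusted p = 0.132) and -0.55 ± 0.19 for Cdkn1a (limma adjusted p = 0.157). Ccne2 had -0.29 ± 0.13 (limma adjusted p = 0.290), Ccne1 -0.20 ± 0.16 and Cdkn2c -0.20 ± 0.12. Ccnd2 (0.08), Cdk2 (-0.11), Cdk4 (-0.03), Cdk6 (-0.03) and Cdkn1b (-0.09) were nearer to 0. The median of the 10 was -0.15, against -0.01 over all genes. This comparison and that of Fosl2 Tg share the control libraries, so their values are only given side by side.

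Set directly against the KO-labelled libraries, Fosl2 Tg had 5 lower genes, Ccne1, Ccne2, Cdk2, Cdk4 and Cdkn2c, and 1 higher gene, Cdkn1b. Over all tested genes 38.1% were called in this comparison, 20.7% lower and 17.4% higher. The groups did not overlap for 7 of the 10 genes, against 60.4% of all genes. The log2 differences were -0.64 ± 0.13 for Ccne2 (SE, limma adjusted p = 0.00823), -0.51 ± 0.12 for Cdkn2c (0.0117), -0.41 ± 0.10 for Cdk4 (0.015), -0.58 ± 0.16 for Ccne1 (0.0258) and -0.32 ± 0.09 for Cdk2 (0.0281). The same 5 genes were lower than control, a comparison that shares the Fosl2 Tg libraries. Cdkn1b rose by 0.80 ± 0.27 (limma adjusted p = 0.0446), and by 0.44 without Fosl2 Tg library 1 (limma adjusted p = 0.0241), but lost its call without any 1 control or KO-labelled library. Cdk6 had 0.52 ± 0.20 (limma adjusted p = 0.0734) and passed without control library 3 (limma adjusted p = 0.0184) or Fosl2 Tg library 1 (0.0404). Without KO-labelled library 2 or 3, 2 and 3 of the 10 genes were called. Ccne1 lost its call without Fosl2 Tg library 1 or 2 or KO-labelled library 2 or 3, Cdk2 without either of the latter, and Cdk4 without KO-labelled library 2.

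The share of 1 gene in the summed FPKM of its family was compared between groups, and 0 of 15 tests passed after adjustment. Cdk6 made up 4.67%, 4.05% and 2.30% of Cdk4 plus Cdk6 in the control libraries, 6.27%, 6.64% and 7.24% in Fosl2 Tg, and 3.66%, 3.32% and 3.64% in the KO-labelled libraries. Every Fosl2 Tg library thus had a higher Cdk6 share than the other 6. Cdkn1b made up 52.8%, 42.3% and 47.3% of the Cip and Kip genes in control, 81.6%, 61.8% and 61.7% in Fosl2 Tg, and 60.3%, 59.2% and 47.5% in the KO-labelled libraries. Cdkn2c made up 24.6%, 29.0% and 30.0% of the INK4 genes in control, 10.3%, 14.6% and 18.3% in Fosl2 Tg, and 35.2%, 33.7% and 30.0% in the KO-labelled libraries. The remainder of the INK4 sum was nearly all Cdkn2d, which encodes p19. Ccne2 made up 14.3% ± 0.918 of the E-type cyclins in control and 11.2% ± 0.444 in Fosl2 Tg (SD, n = 3). Each of these 4 shares had a two-sided exact permutation p of 0.1 between Fosl2 Tg and control, the smallest that 3 against 3 libraries allow (0.167 adjusted over 15 tests). The share of Ccnd2 in the D-type cyclins, 74.4% ± 1.88 in control and 77.6% ± 3.6 in Fosl2 Tg (SD, n = 3), had an exact permutation p of 0.3. In the KO-labelled libraries the Ccnd2 share was 78.35% ± 1.78, above control without overlap (exact permutation p = 0.1).

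**Figure D4:**
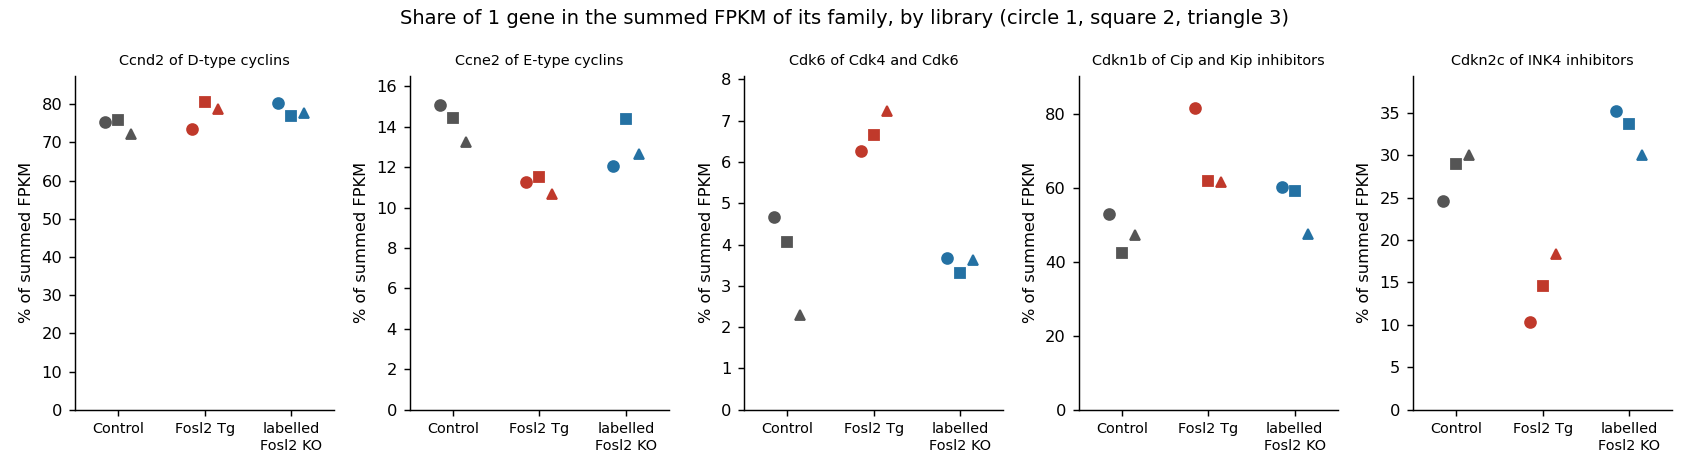
Share of 1 gene in the summed FPKM of its family (y axis, percent, from 0) in each library of the 3 groups (x axis); circles, squares and triangles are libraries 1, 2 and 3. The Fosl2 Tg libraries lie apart from control for Ccne2, Cdk6, Cdkn1b and Cdkn2c and overlap with control for Ccnd2.

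By mean FPKM, the order in control was Cdk4 (286), Ccnd2 (184), Ccnd3 (63.0), Cdk2 (47.6), Ccne1 (31.2), Cdkn1a (17.3), Cdkn1b (16.2), Cdk6 (10.8), Ccne2 (5.14) and Cdkn2c (3.76). Of the neighbours in this order only Cdkn1a and Cdkn1b overlapped between libraries. In Fosl2 Tg, Cdkn1b (28.5) stood above Ccne1 (17.9), Cdk6 (15.3) and Cdkn1a (10.8), and its range overlapped with those of Cdk2 (35.3) and Ccne1. In the KO-labelled libraries the order was that of control, except that Cdkn1b (14.9) was above Cdkn1a (11.7), with overlapping libraries. By the depth estimate, fragments per kilobase of transcript were fewest for Ccne2 and Cdkn2c, with 76 to 295, and most for Cdk4, with 7522 to 16944. Counting error also depends on transcript length, which was not taken into account. The SE of the log2 differences was largest for Cdkn1b (0.27) and Cdk6 (0.20). Ccnd3, Ccne2, Cdk2 and Cdk4 overlap the protein-coding genes Bysl, Ints8, Pmel and Tspan31 on the opposite strand. Antisense genes lie at Ccnd2 and Cdk6, and an unclassified transcript at Cdkn1a. Whether counting used strand is not given in the sources used here, so reads of these overlaps cannot be told apart.

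Lists of genes around the G1 machinery were counted in the same fit. In that fit 23.6% of all tested genes were called between Fosl2 Tg and control, 15.1% lower and 8.53% higher. Of 8 other cyclins and CDKs tested, of 11 listed, 5 fell in Fosl2 Tg and 0 rose, with a median log2 difference of -0.77. Ccna2, the cyclin of S phase and G2, fell from 35.8 to 15.7 FPKM (-1.14 ± 0.17, SE, limma adjusted p = 0.00375), and the mitotic kinase gene Cdk1 from 21.3 to 9.02 (-1.16 ± 0.18, limma adjusted p = 0.00442). The mitotic cyclin gene Ccnb1 fell from 11.5 to 5.15 and Ccnf, a cyclin-like F-box gene, from 8.82 to 4.46. All 5 proliferation markers fell (median -0.97), among them Mki67 (19.2 to 8.88 FPKM), the mitotic kinase genes Aurkb (22.9 to 9.30) and Plk1 (6.49 to 2.79), and Cdc20 (13.3 to 7.09), an activator of the anaphase-promoting complex. Both counts were the same whichever library was left out. At an unadjusted p under 0.05 in the KO-labelled libraries, 3 of the 8 and 2 of the 5 were lower than control, against 10.9% of all tested genes, and 0 passed limma's adjusted threshold.

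Of 15 E2F target genes of S phase, 13 fell in Fosl2 Tg and 0 rose (median -0.57). The ribonucleotide reductase gene Rrm2 fell from 95.4 to 44.8 FPKM (-1.09 ± 0.20, SE, limma adjusted p = 0.00918), the thymidylate synthase gene Tyms from 16.5 to 8.94 (-0.83 ± 0.15), and the replication helicase gene Cdc45 from 43.8 to 23.2 (-0.91 ± 0.17). The replication licensing gene Cdt1 fell from 61.4 to 47.3 (-0.38 ± 0.09, limma adjusted p = 0.0269). Without control library 2 or 3, 3 of the 15 passed. Of 13 pocket protein and E2F genes, 6 fell and 1 rose (median -0.24). The repressive E2F gene E2f8 fell from 9.15 to 3.94 (-1.05 ± 0.13), the activating E2F gene E2f2 from 9.75 to 5.67 (-0.69 ± 0.10) and E2f6 from 21.1 to 17.7 (-0.24 ± 0.07). The call of E2f6 was lost without control library 2 or 3 or any 1 KO-labelled library. Rbl2, which encodes the pocket protein p130 of quiescent cells, rose from 9.13 to 11.7 FPKM (0.33 ± 0.09, limma adjusted p = 0.0356), a call lost in 7 of 9 fits with 1 library left out. It held without control library 1 or Fosl2 Tg library 2. Without control library 2 and 3, 2 and 3 members fell and 0 rose. E2f2 was the only gene of these lists called in the KO-labelled libraries, at 6.37 FPKM (-0.55 ± 0.10, limma adjusted p = 0.0187). That call was lost without control library 2 or 3 or KO-labelled library 1 or 3.

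Of 9 genes of CDK activation and its phosphatases, 3 fell in Fosl2 Tg and 0 rose (median -0.19), against 23.6% of all tested genes. The phosphatase gene Cdc25a, which removes inhibitory phosphates from CDK2, fell from 29.9 to 19.3 FPKM (-0.62 ± 0.11, SE, limma adjusted p = 0.00864). Cdc25c fell from 1.71 to 0.705 and the CDK1 inhibitory kinase gene Pkmyt1 from 23.8 to 16.3. Cdk7, the CDK-activating kinase, was at 6.49 and 6.07 FPKM (limma adjusted p = 0.17). The phosphatase gene Cdc25b, named after its values were seen, went the other way, at 34.6, 13.2 and 13.4 FPKM in Fosl2 Tg libraries 1, 2 and 3. Its mean was 20.4 against 10.7 in control (0.74 ± 0.32), which did not pass (limma adjusted p = 0.114). Against the KO-labelled libraries it was higher by 1.04 ± 0.32 (limma adjusted p = 0.0336). Of 8 genes for the turnover of p27 and cyclin E, 2 fell and 0 rose (median -0.09), a share near that 23.6%. The genes that fell were Skp2 (5.01 to 3.07 FPKM, -0.56 ± 0.11, limma adjusted p = 0.00972), the F-box protein that targets p27 for degradation, and its cofactor Cks1b (82.1 to 49.2, -0.73 ± 0.13, limma adjusted p = 0.00767). The counts of both lists were the same whichever library was left out. In the KO-labelled libraries, 0 genes of either list passed limma's adjusted threshold, and 2 and 1 had an unadjusted p under 0.05. Of all tested genes, 18.8% had an unadjusted limma p under 0.05 in that comparison.

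Of 9 upstream regulators tested, of 10 listed, 1 fell and 1 rose in Fosl2 Tg (median 0.24), a share near the 23.6% of all tested genes. Myc, a transcription factor that binds CACGTG and of which Cdk4 is a known target, stood at 176, 194 and 180.2 FPKM in control, at 134, 160.3 and 155 in Fosl2 Tg, and at 214, 213 and 203 in the KO-labelled libraries. The 3 groups did not overlap. Between the KO-labelled libraries and control, 32.8% of all tested genes did not overlap. The log2 difference of Myc in that comparison, 0.20 ± 0.07 (SE), did not pass (limma adjusted p = 0.202). Myc fell by 0.29 ± 0.07 in Fosl2 Tg against control (log2, SE, limma adjusted p = 0.0281), a call lost without control library 2 or 3 or KO-labelled library 2 and after quantile normalization. The log2 difference between Fosl2 Tg and the KO-labelled libraries was -0.49 ± 0.07 (limma adjusted p = 0.00209). Tob1 rose from 5.99 to 12.5 FPKM (0.85 ± 0.26, limma adjusted p = 0.0482) and by 0.49 without Fosl2 Tg library 1 (limma adjusted p = 0.0078), but its call was lost without any 1 control or KO-labelled library. Klf2 had a log2 difference of 1.19 ± 0.40 (limma adjusted p = 0.0605), and Btg1, another antiproliferative gene, 0.33 ± 0.12 (limma adjusted p = 0.0718). Against the KO-labelled libraries both were higher in Fosl2 Tg, Klf2 by 2.29 ± 0.40 (limma adjusted p = 0.00395) and Btg1 by 0.40 ± 0.12 (limma adjusted p = 0.0297), the latter a call lost without any 1 KO-labelled library. Klf2 was at 14.1, 9.95 and 14.3 FPKM in the KO-labelled libraries, below the 23.0 to 39.4 of control. That log2 difference from control, -1.10 ± 0.40, did not pass (limma adjusted p = 0.185). Of 5 other CDK inhibitors, 1 was tested: Cdkn2d stood at 9.65 FPKM for control, 11.8 for Fosl2 Tg and 6.28 for the KO-labelled libraries. Its log2 difference from control was 0.24 ± 0.16 in Fosl2 Tg, where it did not pass (limma adjusted p = 0.263), and 0.79 ± 0.16 between Fosl2 Tg and the KO-labelled libraries (limma adjusted p = 0.00702). The activation gene Il2ra, the IL-2 receptor alpha chain, was at 94.3 to 102 FPKM in control, 57.6 to 81.2 in Fosl2 Tg, with 123.5 to 129 in the KO-labelled libraries. Of the other 2 activation markers listed, Cd69 rose from 144.5 to 171.6 FPKM in Fosl2 Tg (0.25 ± 0.05, limma adjusted p = 0.00945), and Tfrc had means of 137.4 for Fosl2 Tg and 178.1 for control, which did not pass (limma adjusted p = 0.0897).

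**Figure D5:**
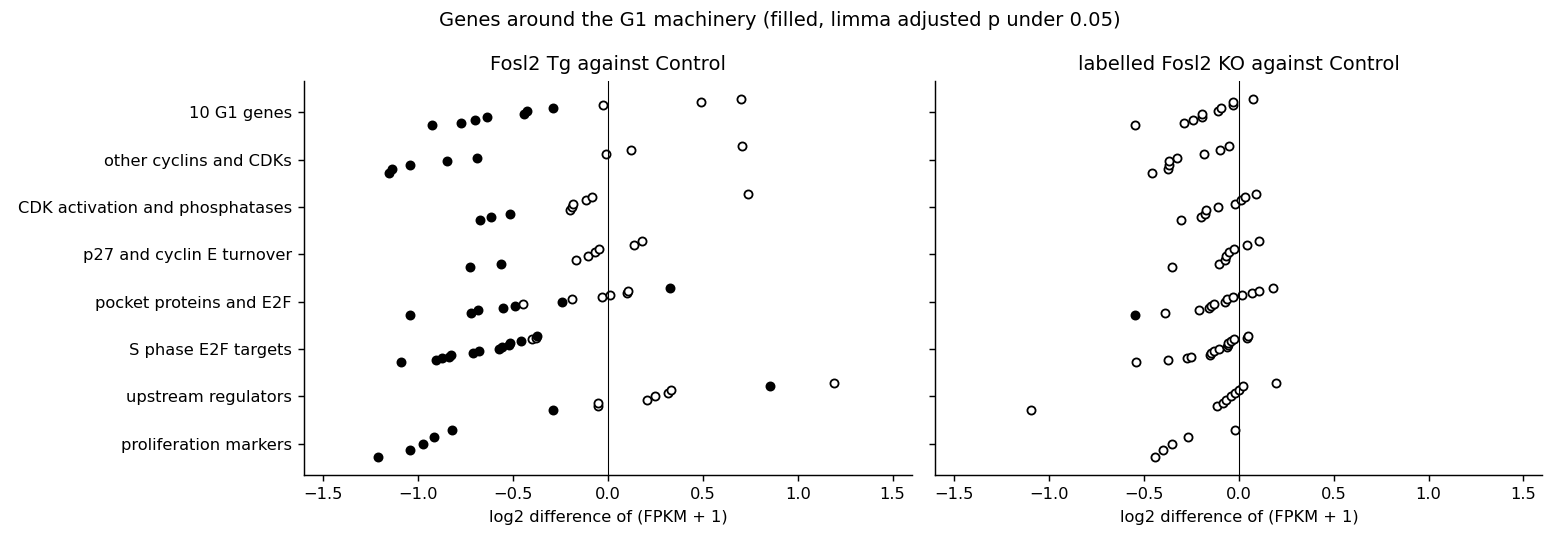
Log2 difference of (FPKM + 1) for each gene (1 point; vertical offsets only separate points) of the G1 genes and of 7 related lists, for Fosl2 Tg (left) and the KO-labelled libraries (right) against control; filled points had a limma adjusted p under 0.05. S phase E2F targets (13 of 15) and proliferation markers (5 of 5) are filled below 0 in Fosl2 Tg, and 1 point, E2f2, is filled on the right.

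The authors' deposited table of Cuffdiff comparisons lists 8 of the 10 genes, Ccnd2 and Ccnd3 not among them. The authors' deposited table holds only entries significant in at least 1 comparison, so counts among the listed genes are not shares of tested genes. Ccnd3 is thus absent from it, but was called lower in Fosl2 Tg in the limma fit (limma adjusted p = 0.0308). In the authors' deposited table all 8 differ significantly between Fosl2 Tg and control, with Cdkn1b (log2 fold change 0.86, q-value 0.000503) and Cdk6 (0.54, q-value 0.000503) higher. Those genes did not pass in the limma fit. The authors' deposited table gives log2 fold changes of -1.17 for Ccne2, -0.94 for Cdkn2c, -0.77 for Ccne1 and -0.64 for Cdkn1a, and -0.40 for both Cdk4 and Cdk2. Between the KO-labelled libraries and control, the authors' deposited table marks 1 of the 8 as significant, Cdkn1a (log2 fold change -0.56, q-value 0.000503). Between Fosl2 Tg and the KO-labelled libraries, the authors' deposited table marks 6 of the 8, without Cdkn1a and Ccne2. In the authors' deposited table Ccne2 has a q-value of 0.0886 there, whereas it passed in the limma fit, and Cdk6, which did not pass in that fit, has a q-value of 0.000503.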

How the data were processed

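RNA-seq was done on 9 libraries of stimulated naive CD4+ T cells, 3 per group, grouped by the labels. Reads were processed with TopHat, Cufflinks and Cuffdiff on build mm10, per the submitters' processing notes; versions, settings, strand option and annotation: not given in the sources used here. FPKM of every gene in each library were deposited by the authors, per the file headers. All 9 library columns matched a label (0 unmatched). A second table that the authors deposited holds comparisons, with a log2 fold change, a p-value and a q-value per entry. That table holds only entries significant in at least 1 comparison, with group values scaled apart from the libraries, and it was used as a description only. An empty entry of each was not analysed here, and 27 gene symbols had been turned into dates.

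FPKM are not counts, so no count model was used. Values were analysed as log2(FPKM + 1), which understates changes of genes with low FPKM. The 10340 genes whose FPKM averaged at least 1 across libraries were fitted in limma 3.58.1 (R 4.3.3) with a trend of variance on mean, all 3 groups in 1 fit and no covariate (6 residual degrees of freedom). P-values were adjusted by Benjamini-Hochberg over all tested genes, separately for each comparison, and called under 0.05. Errors of log2 differences are SEs from limma. Depth was estimated from the steps between low FPKM values of 540 genes (72.1% to 76.0% of these values within 0.1 of a whole fragment) and covers counting error only. A gene of the CD4 T cell marker list is not reported here. The 10 genes and the lists around them (other cyclins and CDKs, other CDK inhibitors, CDK activation, turnover of p27 and cyclin E, pocket proteins and E2F, S phase E2F targets, upstream regulators, proliferation markers) were chosen with earlier results of these data known. From each list at most 4 genes past the threshold with the smallest adjusted p in any comparison are named, and for the 3 of the 10 genes with the smallest adjusted p, the 3 genes most correlated with each. Alternatives were pseudocount 0.1, no filter, a mean FPKM of at least 5, median-of-ratios scaling, quantile normalization, only the groups compared, the replicate number as a block, and leaving out each library.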

Additional observations from a re-analysis of the deposited data

How the results depend on the processing

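Genes called between Fosl2 Tg and control numbered 2440, and 861 with only the groups compared (879 to 2529 with 1 library left out). For the KO-labelled libraries against control they numbered 461, and 289 at a mean FPKM of at least 5 and 888 with only the groups compared (176 to 1233). For Fosl2 Tg against the KO-labelled libraries they numbered 3943 (2170 to 4100). Of the 10 G1 genes, 7 were called in Fosl2 Tg against control, 3 with only the groups compared and 2 to 6 with 1 library left out. Against the KO-labelled libraries they numbered 6, and 2 to 6. Against control, 882 genes were higher and 1558 lower in Fosl2 Tg (36.1% higher), but 46.5% were higher after median-of-ratios scaling and 45.5% after quantile normalization. In the KO-labelled libraries, 47.9% of calls were higher, and 59.6% without a filter on low values. The cause of these shifts was not tested.

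Values near 0 changed sign. For Fosl2 Tg against control Ccnd2 had a log2 difference of 0.017 after median-of-ratios scaling and 0.091 after quantile normalization, and -0.088 to 0.081 with 1 library left out. Against the KO-labelled libraries the ranges with 1 library left out were -0.159 to 0.006 for Ccnd2, -0.109 to 0.012 for Ccnd3 and -0.193 to 0.118 for Cdkn1a. For the KO-labelled libraries against control they were -0.097 to 0.017 for Cdk4, -0.27 to 0.104 for Cdk6, -0.163 to 0.038 for Cdkn1b, -0.125 to 0.054 for Cdc20 (0.002 after quantile normalization), -0.041 to 0.051 for Cdc25a, -0.007 to 0.082 for Cdt1, -0.154 to 0.048 for Cks1b and -0.04 to 0.085 for Tob1. None of these values passed the threshold. Calls of Ccne2 and Cdkn2c in Fosl2 Tg held with every library left out and in each other setting that tested them; a mean FPKM of at least 5 left both untested.

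Over all tested genes, deviations from the group mean were not more alike between libraries of the same replicate number than between others. Deviations of same-numbered libraries correlated at -0.126 to 0.098 (9 pairs), and those of others at -0.12 to 0.143 (18 pairs). Some of the G1 genes did share an order: library 1 of every group was its lowest for Ccne1, Ccne2, Cdk2 and Cdk4, and its highest for Cdkn1b. The source of this shared order was not tested. With the replicate number as a block, 3259, 491 and 4589 genes were called for Fosl2 Tg against control, the KO-labelled libraries against control, and Fosl2 Tg against these. Without the block these counts were 2440, 461 and 3943. Whether libraries were paired by number cannot be told from these values. Of the 10 G1 genes 8, 0 and 6 were called.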

Other observations

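The genes whose pattern over the 9 libraries was most like that of 3 of the G1 genes are given as a description, since all values share libraries, groups and depth. For Ccne2 these were Iqgap3 (Pearson r 0.996, n = 9 libraries), Spag5 (0.995) and Tpx2 (0.995); Spag5 and Tpx2 encode proteins of the mitotic spindle. Tpx2 stood at 6.31, 8.05 and 7.83 FPKM in control, at 2.70, 3.40 and 3.92 in Fosl2 Tg, and at 4.83, 6.46 and 5.95 in the KO-labelled libraries. For Ccne1 they were Oip5 (0.998), Cnot10 (0.993) and Cenpn (0.993), of which Oip5 and Cenpn encode proteins of the centromere. Oip5 stood at 6.14, 7.76 and 8.70 FPKM in control, at 2.83, 3.70 and 4.996 in Fosl2 Tg, and at 5.56, 6.78 and 6.50 in the KO-labelled libraries. For Cdkn2c they were Tmem107 (0.982), Aurka (0.979) and Haus5 (0.973). Aurka, a mitotic kinase gene, stood at 6.14, 7.64 and 7.96 FPKM in control, at 3.50, 3.77 and 4.53 in Fosl2 Tg, and at 5.605, 6.42 and 5.67 in the KO-labelled libraries. Tpx2, Oip5 and Aurka, like Ccne2 and Ccne1, had their lowest value of every group in library 1. For Aurka this was narrow among the KO-labelled libraries (5.605 against 5.67 FPKM in library 3).

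Among CDK inhibitors under the filter on low values, named after their values were seen, Cdkn1c was at 0.453 to 0.588 FPKM in control, 0.789 to 1.31 in Fosl2 Tg, with 0.426 to 0.469 in the KO-labelled libraries. Cdkn3 was at 0.493 to 0.546 in control, 0.165 to 0.240 in Fosl2 Tg, with 0.248 to 0.483 in the KO-labelled libraries. Neither was tested.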
